A study of Drosophila melanogaster with 2 samples.

Results

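The sarcomere and muscle genes described here are 30 named genes of the fruit fly Drosophila melanogaster, taken from a list of gene symbols. All 30 were found in the gene models of the dm6 genome, among 13945 protein-coding genes. They fall into 12 thin filament genes, 6 thick filament genes, 7 genes of the Z-disc and the connecting filaments, and 5 others, which encode regulators, a kinase and an anchoring protein. Chromatin immunoprecipitation and sequencing (ChIP-seq) with an anti-GFP antibody had been done on whole prepupae, animals at the start of metamorphosis, of a stable transgenic line in which CG8216, the product of the gene spab, carries eGFP at its C terminus. The series holds 1 group with 2 biological replicates, both of this line and both pooled from males and females. The labels give an age of 24 days, where hours may be meant, and fragments from 200 to 800 bp made by sonication. Muscle supplied only some of the chromatin of these whole animals, so binding in few nuclei and weak binding in many cannot be told apart, and the tissue of a bound site is not known.

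The sarcomere is the repeating contractile unit of muscle. Thin filaments of actin, tropomyosin and the troponins slide past thick filaments of myosin. Thin filaments are anchored at the Z-disc, and elastic titin-like proteins connect the Z-disc to the thick filaments. In flies many of these proteins come from single genes whose alternative start sites and exons serve different muscles, and the transcription factor Mef2 is known to switch on many of them. Around this stage most larval muscles are dismantled and the adult muscles begin to form.

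A gene is called bound here when a reproducible peak had its summit no more than 500 bp from any annotated start site of the gene's transcripts. A relaxed list from both replicates pooled, which includes background, held 30000 peaks, and the reproducible list was the 19.8% of them with the highest signal. Ranks given here count from the strongest reproducible peak. Peak signal is the authors' value in their peak caller's own units, from 149.5 to 4074 in the reproducible list. Of the 30 muscle genes 7 were bound (23.3%), against 10.9% of all protein-coding genes. These were Act87E, Tm1 and tmod of the thin filament, sls of the Z-disc and connecting filaments, and Mef2, Strn-Mlck and Msp300 among the others. None of the 6 thick filament genes held a reproducible summit, either at a start site or inside the gene. Of all protein-coding genes 16.8% had one, so with 6 genes a count of 0 stands near the genome's share.

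The bases around the strongest bound sites are shown first, because most of them lay inside long genes and some way from an alternative start, not at the gene's first promoter. Each line gives the summit and 50 bp on either side, plus strand, from the RefSeq sequence of Release 6 (dm6), and none of these stretches overlapped an annotated exon. Capitals mark a match to the MEF2 consensus, and a line without capitals holds none. The lines cover tmod at chr3R:30570689-30570789, Msp300 at chr2L:5108121-5108221, Act87E at chr3R:13425613-13425713, a further Msp300 summit at chr2L:5145908-5146008, and sls at chr3L:2115786-2115886.
tmod: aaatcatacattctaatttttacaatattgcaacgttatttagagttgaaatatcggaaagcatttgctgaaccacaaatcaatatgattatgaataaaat
Msp300, first summit: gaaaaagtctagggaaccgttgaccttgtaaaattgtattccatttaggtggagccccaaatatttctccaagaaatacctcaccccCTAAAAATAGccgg
Act87E: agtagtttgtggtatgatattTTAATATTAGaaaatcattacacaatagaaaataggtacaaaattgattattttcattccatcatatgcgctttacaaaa
Msp300, further summit: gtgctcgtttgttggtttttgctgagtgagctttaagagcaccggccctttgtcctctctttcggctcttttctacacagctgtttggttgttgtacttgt
sls: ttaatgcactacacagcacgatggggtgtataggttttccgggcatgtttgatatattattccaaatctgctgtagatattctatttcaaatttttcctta

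The 7-base words CAGTGCA and CAGTGTA, taken from earlier work on the same files, were looked for on both strands within 100 bp of each summit. Of the 20 reproducible summits at or in muscle genes, 6 (30%) held one of them, against 17.3% of all reproducible summits (1029 summits). Within 50 bp it was 2 of 20 (10%), against 5.53% of all (329 summits). The summits with a word belonged to Act87E, Mef2 (2 summits), Zasp52 and tmod (2 summits). Shown in capitals within their flanks, on the plus strand, are the Act87E word at chr3R:13425745-13425771, centred 95 bp from the summit, and the tmod words at chr3R:30540315-30540341 and chr3R:30570650-30570676, which read CAGTGCA on the other strand and were centred 45 and 76 bp from their summits.
Act87E word: atctttcctgCAGTGCAccatctggga
tmod word, weaker summit: gtgtctgatcTGCACTGcaagaaacac
tmod word, strongest summit: ccccgcccacTGCACTGaaacaaaata

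The word CACTGAG, from the same earlier work, occurred at 1 muscle-gene summit (5%) and at 6.75% of all summits. CAGTGCA and CAGTGTA share their first 5 bases but no match can be of both. The MEF2 consensus, searched after the sequences had been seen, was matched at 3 of the 20 muscle-gene summits (15%), against 11.2% of all reproducible summits (665 summits). The matches lay at Act87E and at 2 Msp300 summits. The bases within 100 bp had a median GC content of 35.3% at muscle-gene summits and 34.8% at all summits. A match of these letters describes the sequence only, and with 20 summits the shares are coarse.

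The 7 bound genes made 23.3% of the 30 (95% CI 9.93 to 42.3%, exact Clopper-Pearson, counting error only), against 10.9% of all protein-coding genes. The interval just includes the genome's share. The count rests on sites of modest signal that lie some way from the start: with a window of 250 bp it was 2 genes (6.67%), Tm1 and sls, against 7.64% of all genes. With the 50% of reproducible peaks of highest signal it was also 2 genes (6.67%), Msp300 and tmod, against 6.67% of all genes. A peak covered the start site itself in 1 gene, Tm1 (3.33%), against 5.72% of all genes. With a window of 1000 bp Zasp52 and Actn were added, which gave 9 genes (30%), against 14% of all genes.

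Gene bodies and the relaxed list gave larger counts. A reproducible summit lay inside 8 of the 30 muscle genes (26.7%, CI 12.3 to 45.9%), against 11.9% of all protein-coding genes. In the pooled relaxed list, 12 muscle genes (40%, CI 22.7 to 59.4%) were bound at a start site, against 26.7% of all genes. Inside the gene body, 13 had a relaxed summit (43.3%, CI 25.5 to 62.6%), against 25.5%. At a start site or inside the gene, 10 muscle genes had at least 1 reproducible summit (33.3%, CI 17.3 to 52.8%), against 16.8% of all genes, and 16 had at least 1 relaxed summit (53.3%, CI 34.3 to 71.7%), against 33.6%. The other 14 had none in either list. They were Act79B, Act88F, up, Tm2, TpnC41C, TpnC47D and TpnC73F of the thin filament, Mhc, Mlc1, fln and Mf of the thick filament, and bt, Mlp84B and Zasp66 of the Z-disc and connecting filaments. In a single replicate's own relaxed list, 4 of these 14 held a summit in the body that the pooled list lacks: 2 in Mhc and 1 in Tm2 in replicate 1, and 1 in Act88F and 2 in TpnC73F in replicate 2.

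**Figure D1:**
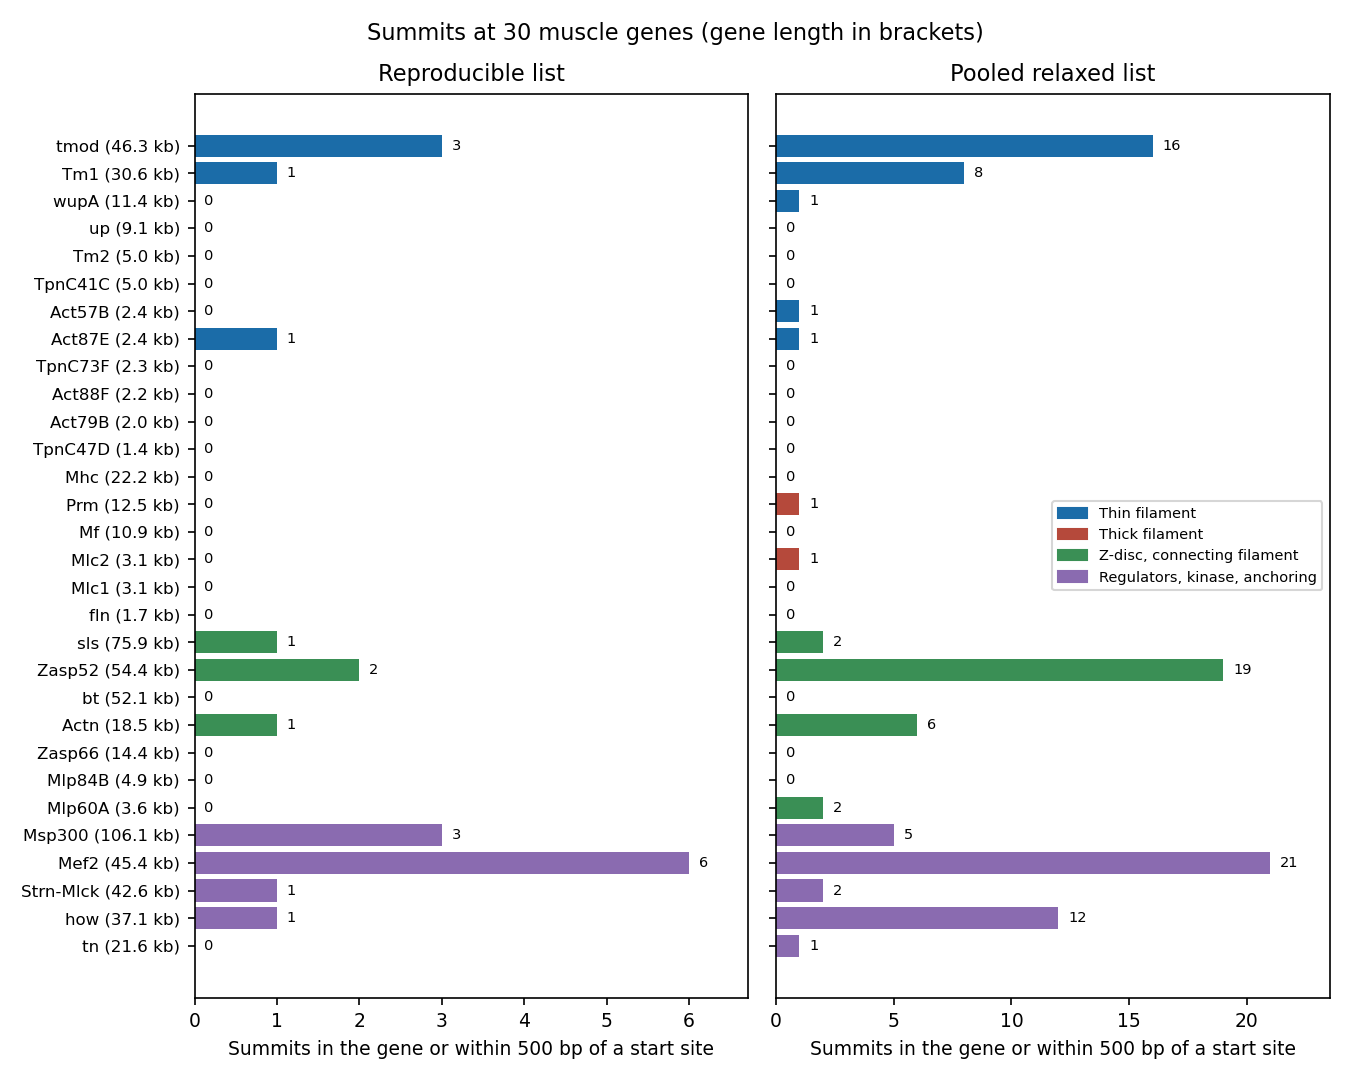
Number of summits inside each of the 30 muscle genes or within 500 bp of one of its start sites, in the reproducible list (left) and the pooled relaxed list (right); genes are grouped by role and ordered by length, which is given in kb. Mef2 leads with 6 reproducible and 21 relaxed summits, and the 6 thick filament genes show 0 reproducible and 2 relaxed summits in all.

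The thin filament genes held 5 reproducible summits, in 3 of 12 genes, against 16.8% of all protein-coding genes with 1 at a start or inside. Act87E, one of the muscle actins, had a summit at chr3R:13425433-13425892 with a signal of 224.1, rank 3837. Its signal was 79.68 in replicate 1 and 141.1 in replicate 2. The summit lay outside the gene, 320 bp upstream of the first of its 2 start sites, where 2 of its 3 transcripts begin. The other muscle actins had no reproducible summit. Act57B, whose nearest reproducible summit was 4.05 kb from its start, had 1 relaxed summit of signal 34.94 that neither replicate's own list matched. Act88F, the actin of the indirect flight muscles, had none, nor had Act79B, and their starts lay 12.0 and 30.4 kb from the nearest reproducible summit.

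The tropomyosin gene Tm1 makes many isoforms from 8 start sites. Its reproducible summit, chr3R:15280953-15281412, had a signal of 154.3, which at rank 5738 lies near the lower end of the list. Replicate 1 gave 48.59 and replicate 2 gave 91.12. The summit lay in an intron, 188 bp upstream of the second start site (transcript RG) and within 500 bp of the third (RF, RK and RP) and the fourth (RE, RJ, RL, RM, RN, RO and RS). In all 11 of the 18 Tm1 transcripts begin at those sites. The most upstream start had no summit within 500 bp, and the nearest reproducible one, of signal 1016, lay 2806 bp upstream of it. A further 7 relaxed summits lay in Tm1, the highest with a signal of 123.3 and in coding sequence. Tm2, the other tropomyosin gene, had none in either list, and the nearest reproducible summit was 29.0 kb from its start.

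Tropomodulin, the product of tmod, caps the slow-growing ends of thin filaments. Its 46.3 kb gene had 9 start sites and 3 reproducible summits. The strongest, chr3R:30570597-30570944, had a signal of 607.4 (rank 999), with 294.2 in replicate 1 and 320.7 in replicate 2. It lay 418 bp upstream of the last start site, used by 1 of 18 transcripts (RB). A second summit, chr3R:30540143-30540602, had 228.9 (108.7 and 119.3 in replicates 1 and 2) and lay 1414 bp downstream of the fourth start. The remaining one, chr3R:30567204-30567663, had 172.2 (54.33 and 111.6) and lay 3723 bp upstream of the last start. At the first start of tmod there was a relaxed summit only, of signal 139.5, 449 bp upstream, with 52.6 in replicate 1 and 87.95 in replicate 2. The start of lncRNA:CR45552, a non-coding RNA gene, was nearer to it, at 297 bp. A relaxed summit of 56.02 inside tmod, matched in replicate 1 only (30.85), lay 218 bp from the start of CG34155.

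Troponin is the calcium switch of the thin filament. Of its 5 genes listed, 0 were bound in the reproducible list and 1 in the pooled list, against 10.9% and 26.7% of all genes, so counts this small stand near the genome's share. The gene wupA (troponin I) had 1 relaxed summit 288 bp from a start, with a signal of 33.44 and a match of 19.21 in replicate 1 only. The troponin T gene up and the troponin C genes TpnC41C, TpnC47D and TpnC73F had none in the reproducible or the pooled list. Their starts lay 22.5, 712.5, 14.0 and 6.47 kb from the nearest reproducible summit.

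The thick filament genes had no reproducible summit at any of their 16 start sites. With 10.3% of all start sites and 10.9% of all genes bound, counts of 0 in 16 sites and 6 genes stand near the genome's share. Mhc encodes the muscle myosin heavy chain, and its 22.2 kb and 5 start sites held no reproducible and no relaxed summit. The nearest summits to its starts were 45.7 kb away in the reproducible list and 29.9 kb away in the relaxed list. Mlc1, the essential light chain gene, lay 17.5 kb from a reproducible summit. Of fln and Mf, which encode the thick filament proteins flightin and myofilin, the starts lay 11.4 and 31.9 kb away.

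Mlc2 and Prm had the only relaxed summits of the thick filament. In Mlc2, which encodes the regulatory light chain, the summit lay in a non-coding exon with a signal of 124.5 (rank 7189 of the pooled list). It was 387 bp from the start of Rsod, and only replicate 2 matched it, with 86.05. In Prm, the paramyosin gene, an intronic summit had 90.83 (rank 10016), with 45.74 in replicate 1 and 43.26 in replicate 2. The 6 genes together had 3.74 relaxed summits per 100 kb, against 21.1 over the bodies of all protein-coding genes.

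Of the 7 genes of the Z-disc and connecting filaments, 1 was bound, against 10.9% of all protein-coding genes. The gene sls encodes the titin-like proteins sallimus and kettin. Its only start site serves all 13 transcripts, and a summit 225 bp upstream of it, chr3L:2115776-2115890, had a signal of 190.5 (rank 4586). The replicates gave nearly equal values, 91.73 and 92.56. Inside the 75.9 kb of the gene there was no reproducible summit and 1 relaxed summit, of signal 44.79 in coding sequence. The start nearest to that summit was that of asRNA:CR42860, at 3852 bp. The other titin-like gene, bt, encodes projectin. It spans 52.1 kb of chromosome 4 and had no summit in either list, and that chromosome held 7 reproducible and 46 relaxed summits in all.

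Zasp52 encodes a PDZ and LIM domain protein of the Z-disc, and its 54.4 kb held 2 reproducible and 17 further relaxed summits. The reproducible ones lay in introns, at chr2R:15799902-15800361 with a signal of 199.2 (102.2 and 97.5 in replicates 1 and 2) and at chr2R:15784815-15785274 with 191.5 (73.41 and 115.4). Neither lay within 500 bp of a Zasp52 start, and a start of the gene tun was closer to both, at 6132 and 8955 bp in that order. That start lies within Zasp52, and tun runs on past the first Zasp52 start. The strongest site near Zasp52 lay just outside that gene and the 500 bp window. A peak at chr2R:15817510-15817959, inside tun, had a summit of signal 998.5 (rank 352), 716 bp upstream of the first Zasp52 start, with 501.8 in replicate 1 and 499.5 in replicate 2. A second summit of the same peak, 916 bp upstream, had 204.3 (54.18 and 166.1). Within the window, the first start had a relaxed summit of 67.15, 57 bp away, with 47.93 in replicate 2 and no match in replicate 1. Another 2 of its relaxed summits, of 107 and 73.85, lay 334 and 128 bp from the start of tun. Zasp66, a further gene of this kind, had no summit in either list, and its starts lay 16.8 kb from the nearest reproducible summit.

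Actn encodes α-actinin, which cross-links actin at the Z-disc. Its reproducible summit, chrX:2041134-2041593, had a signal of 227.7, with 99.51 in replicate 1 and 132.7 in replicate 2. It lay 947 bp downstream of an Actn start but 52 bp from the start of usp, the partner of the ecdysone receptor, and inside usp. The Actn start sites themselves had 4 relaxed summits of up to 101.9, and 2 of these were matched in both replicates, with 41.38 and 40.59 at one of 97.37, and 41.16 and 69.96 at one of 100.2. The summit of 100.2 was 125 bp from a start of Actn and as far from a start of usp. A relaxed summit of 90.61 inside Actn lay 270 bp from a usp start and 286 bp from the start of CG4313. Of the muscle LIM protein genes, Mlp60A had a relaxed summit of 32.68 at its start, matched in replicate 1 only (23.74), and a further one of 41.48 inside the gene. Mlp84B had none, and its starts lay 6.56 kb from the nearest reproducible summit.

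The 5 remaining genes held 11 of the 20 reproducible summits. Mef2, the myogenic transcription factor of the MADS family, had 6 in its 45.4 kb. The strongest, chr2R:9954655-9954976, had a signal of 747.6 (rank 689), with 397.4 in replicate 1 and 374.5 in replicate 2, and lay in intron 1, 4048 bp downstream of the most upstream start. The summit at a start site, chr2R:9929678-9930137, was the weakest of the 20, with 151.7 (rank 5857). It was matched in replicate 2 (65.05) and not in replicate 1. It lay 293 bp upstream of the third start, where 8 of 11 Mef2 transcripts begin. The other 4 ran from 209.7 to 240.9, with 106.5 to 140.2 in replicate 1 and 91.05 to 120 in replicate 2. Within 500 bp the 2 upstream starts of Mef2 had relaxed summits only, of 88.26 and 31.79. A reproducible summit of signal 1986 lay 1037 bp upstream of the first start, outside the gene and the window.

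Msp300 encodes a giant nesprin that anchors nuclei in muscle fibres. Its 106.1 kb held 3 reproducible summits, among them the strongest at or in any of the 30 genes. That one, chr2L:5145522-5145978, had a signal of 898 (rank 457), with 416.9 in replicate 1 and 471.1 in replicate 2, and lay 632 bp upstream of the fourth of 5 starts (RF). It missed the window of 500 bp. A weaker summit 204 bp further along, chr2L:5145710-5145982, had 219.1 (97.84 and 114.5) and lay 428 bp upstream of the same start. The first summit in the gene, chr2L:5108068-5108293, had 485.1 (211.5 and 266.1) and lay 341 bp upstream of the second start, used by RD and RL. So 3 of 11 Msp300 transcripts begin at bound sites, and the most upstream start was not bound. The fourth start counts through the weaker summit only. Where just the strongest of summits chained within 500 bp was kept, Msp300 had 1 bound start, and all muscle genes had 9 in place of 10.

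Strn-Mlck encodes stretchin, a giant protein with isoforms that hold a myosin light chain kinase. Its summit, chr2R:15951597-15952056, had 154.4 (rank 5729), with 79.63 in replicate 1 and 65.26 in replicate 2. It lay 261 bp downstream of the sixth of 7 starts, where 2 of 10 transcripts (RM and RN) begin. The gene how encodes an RNA-binding protein needed for muscle and tendon development. Its 1 start was not bound, and 1 reproducible summit, chr3R:22049061-22049520, lay 7100 bp downstream in intron 2, with 239.3 (117.4 and 125.7). A further 11 relaxed summits lay in its 37.1 kb. The gene tn, a TRIM family member that keeps myofibrils intact, had 1 relaxed summit of 51.56, matched in replicate 2 only (32.81), and its starts lay 60.7 kb from the nearest reproducible summit.

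**Figure D2:**
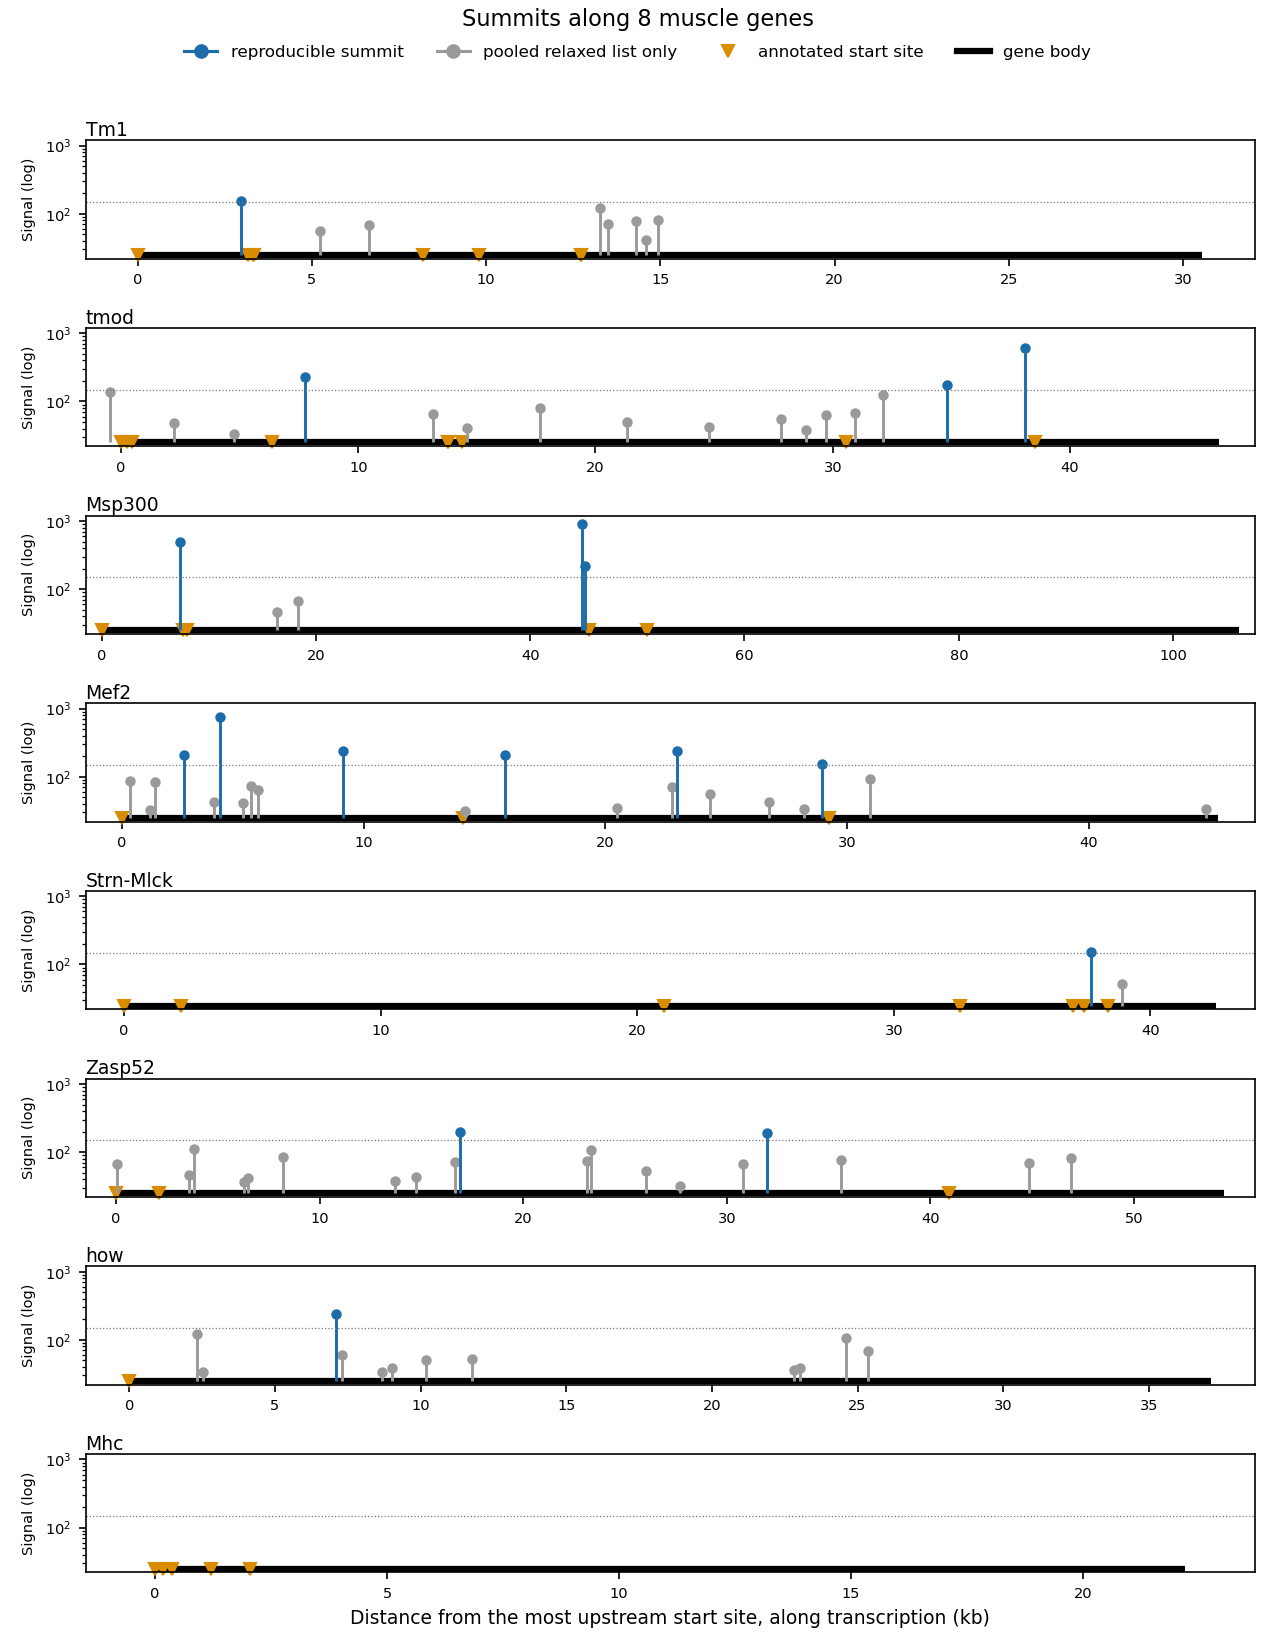
Peak signal in the authors' units (log axis) against distance in kb from the most upstream start site, along transcription, for 8 muscle genes; blue marks reproducible summits, grey marks summits of the pooled relaxed list only, orange triangles mark start sites, and the dotted line is the lowest reproducible signal, 149.5. In tmod, Msp300, Mef2 and Strn-Mlck the blue summits at starts stand at internal starts, and Mhc shows no summit in its 22.2 kb. Summits outside a gene and over 500 bp from its starts are not drawn.

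Across the 30 genes, 10 of 92 distinct start sites had a reproducible summit within 500 bp (10.9%, CI 5.34 to 19.1%), against 10.3% of the start sites of all protein-coding genes. Per start site the muscle genes were thus at the genome's share. The bound starts were 1 of 2 in Act87E, 3 of 8 in Tm1, 1 of 1 in sls, 1 of 3 in Mef2, 1 of 7 in Strn-Mlck, 2 of 5 in Msp300 and 1 of 9 in tmod. Only in Act87E and sls was the bound start the most upstream one, and sls has no other start. In the other 5 genes every bound start was internal. Those genes have 3 to 9 starts each, all but the first of them internal, and the 3 bound Tm1 starts share 1 summit. No share of first against internal starts was computed over all genes, so this is description only. Beyond the 500 bp window, a reproducible summit of 1986 lay 1037 bp upstream of the first Mef2 start. At the first start of Tm1 one of 1016 lay 2806 bp upstream, and at that of Strn-Mlck one of 1491 lay 2991 bp upstream. The nearest to the first start of tmod had 155.1, 5747 bp upstream, and that of Msp300 had 485.1, 7294 bp downstream. For the upstream ones, which lie outside these genes, whether the start of another gene was nearer was not determined. In the pooled relaxed list 24 of the 92 start sites had a summit (26.1%, CI 17.5 to 36.3%), against 27.3% over all protein-coding genes. Both intervals treat the start sites as independent. Starts of the same gene can lie close together and share a summit, so the intervals are likely too narrow.

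The 8 summits at starts were not close to them. Their distance to the gene's own start had a median of 306.5 bp (188 to 428), against 192 bp (0 to 500) to the nearest start for the 1723 summits at starts in all. Upstream lay 7 of the 8 (87.5%), against 73.1% of the 1723 relative to their nearest start, and downstream lay 1, that of Strn-Mlck. Their signal had a median of 204.8 (151.7 to 607.4), against 308.2 (149.5 to 4074). The 12 muscle-gene summits away from their own gene's starts had a median of 228.3 (172.2 to 898). This stands against 267.5 over the 4221 summits away from the starts of all genes. The 12 include the Actn summit that lay 52 bp from a usp start. Of all 20, 4 were among the 50% of reproducible peaks with the highest signal: 2 in Msp300, 1 in Mef2 and 1 in tmod.

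Most bound genes were long, and 4 of the 7 had 5 or more starts. Their median length was 45.4 kb (2.4 to 106.1) with a median of 5 start sites (1 to 9), and the 23 unbound muscle genes had a median of 5.0 kb (1.4 to 54.4) with 2 start sites (1 to 6). Act87E, with 2.4 kb and 2 starts, and sls, with 1 start, were bound too. All protein-coding genes had medians of 2.2 kb and 1 start site. Of muscle genes under 5 kb, 1 of 12 was bound (8.33%, CI 0.211 to 38.5%), against 7.67% of all genes of that length. From 5 to under 20 kb it was 0 of 7 (CI up to 41%), against 18.7%. At 20 kb or longer it was 6 of 11 (54.5%, CI 23.4 to 83.3%), against 25%. By the number of starts, 1 of 9 muscle genes with 1 start was bound (11.1%), against 6.56% of such genes, and 2 of 13 with 2 to 4 starts (15.4%), against 21.3%. With 5 or more starts it was 4 of 8 (50%, CI 15.7 to 84.3%), against 52.1%.

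**Figure D3:**
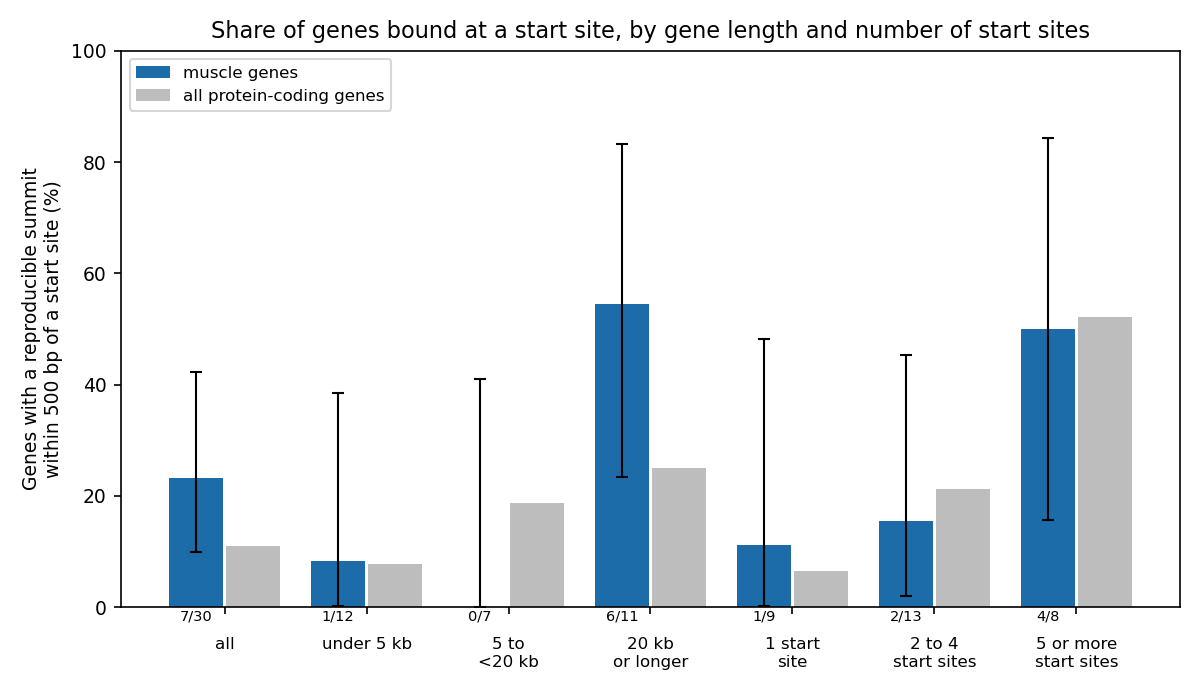
Percentage of genes bound at a start site for muscle genes (blue, with exact 95% intervals and counts below) and all protein-coding genes (grey), in all and by gene length and number of start sites. The muscle genes with 5 or more starts were bound in 4 of 8 cases, beside 52.1% of all such genes, and those of 20 kb or longer in 6 of 11, beside 25%.

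Measured per length, the muscle genes held fewer summits than protein-coding genes as a whole. Their bodies, 650.2 kb in all, held 18 reproducible summits or 2.77 per 100 kb, against 4.3 per 100 kb over all protein-coding genes. The value was 3.33 for the thin filament, 0 for the thick filament, 1.34 for the Z-disc and connecting filaments, and 4.35 for the others. Relaxed summits came to 14.3 per 100 kb, against 21.1. Coding sequence made 35.8% of the muscle gene bodies, against 23.7% over all genes, and hardly any summit lay in it. Of the 20 reproducible summits 17 lay in introns, 1 in a non-coding exon, 0 in coding sequence and 2 outside the gene, and of the 99 relaxed ones 84, 7, 2 and 6. Per 100 kb of introns the muscle genes had 4.79 reproducible and 23.7 relaxed summits, against 5.98 and 27.8 over all genes.

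The introns of different muscle genes were unlike each other. Relaxed summits per 100 kb of introns came to 47 in Mef2, 41.4 in Zasp52, 39.5 in tmod, 37.8 in Actn, 37.4 in how and 33.7 in Tm1, all above the 27.8 of all genes. Mlp60A, with 2 such summits in 0.8 kb of introns, came to 255. They came to 14.1 in Prm, 13.8 in Msp300, 10.2 in Strn-Mlck and 6.47 in tn. Introns of Mhc (13.1 kb), bt (24.1 kb), sls (16.9 kb), Zasp66 (11.6 kb) and wupA (9.4 kb) held none. Of the 11 muscle genes of 20 kb or longer, 9 had a relaxed summit in the body (81.8%), against 93.6% of all genes that long, and the 2 without were Mhc and bt. These counts are small, and no test was made of the differences between genes.

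**Figure D4:**
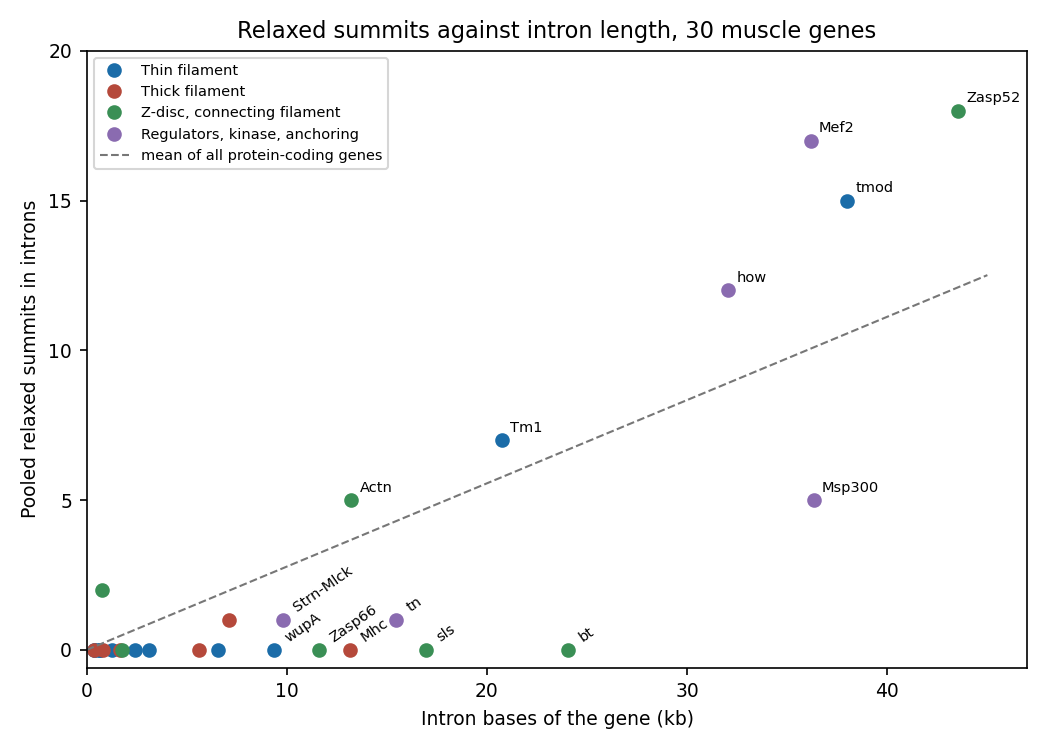
Number of pooled relaxed summits in introns (vertical) against the intron length of the gene in kb (horizontal), 1 point for each of the 30 muscle genes, coloured by role; the dashed line is the mean of all protein-coding genes, 27.8 per 100 kb. Zasp52, Mef2, tmod, how, Actn, Tm1 and, at 0.8 kb of introns, Mlp60A lie above the line, and of the genes with over 9 kb of introns bt, sls, Mhc, Zasp66 and wupA lie at 0.

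The replicates gave like values at most muscle-gene summits. The reproducible list was made from both replicates, so likeness at its summits follows in part from how they were chosen. Of the 20, 19 had a summit within 100 bp in both replicates' own lists, and the exception was the start-site summit of Mef2. Most of all reproducible summits, 5621, had such a match too, so it is not particular to muscle genes. As a log2 ratio, replicate 1 over replicate 2 had a median of -0.12 (-1.04 to 0.34), against -0.16 (-3.10 to 2.49) over those 5621 summits. The replicates' values are not scaled for read number. The lowest ratios belonged to the weakest tmod summit, to Tm1 and to Act87E, where replicate 2 was higher. With as many peaks as the reproducible list holds, taken from the top of replicate 2 alone, 5 muscle genes were bound (16.7%), against 11.9% of all genes, and Mef2 and Strn-Mlck dropped out. With those of replicate 1 alone the same 7 genes were bound, against 11.2% of all genes, but not all through the same summits. Mef2 was bound at the third start through a replicate 1 summit of 85.28 that lay 106 bp from the reproducible one. Tm1 was bound at its second start only, in place of 3 starts, through a summit of 80.67 that lay 155 bp away. In replicate 2 alone tmod was also bound at its first start, with 87.95.

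**Figure D5:**
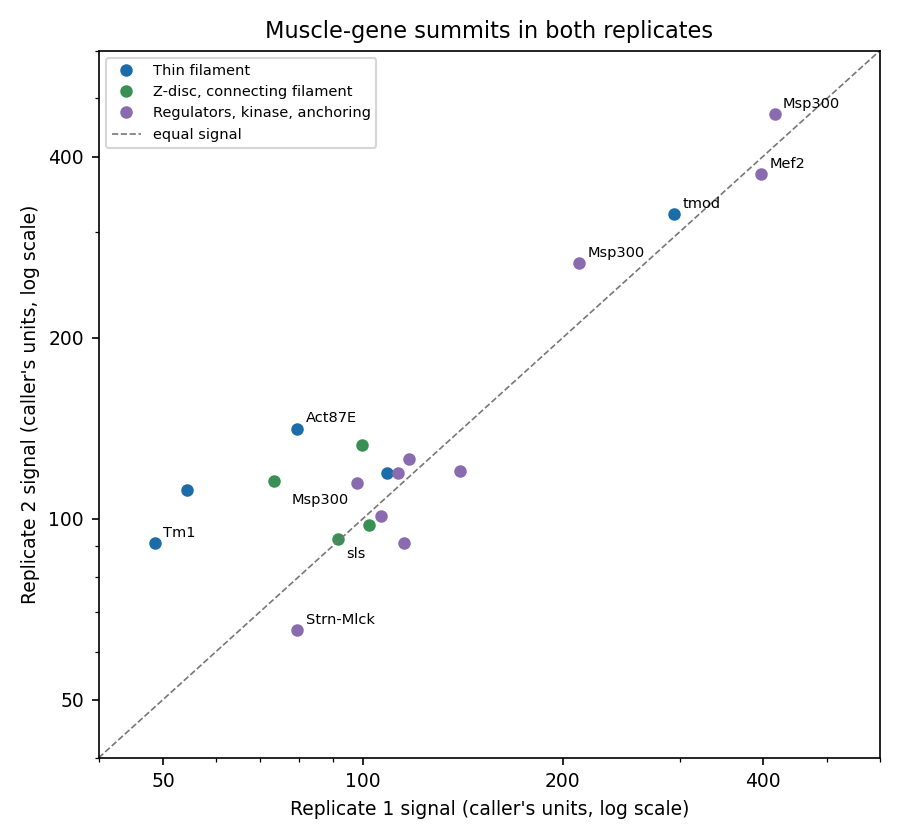
Signal of the 19 muscle-gene summits found in both replicates, replicate 1 (horizontal) against replicate 2 (vertical), both log axes in the authors' units, coloured by role, with the line of equal signal. The strong summits of Msp300, Mef2 and tmod lie near the line, and Act87E (79.68 and 141.1) and Tm1 (48.59 and 91.12) lie above it.

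A further list of 50 muscle genes, of which 47 were found in the gene models, gave a similar share. Of these 10 were bound (21.3%, CI 10.7 to 35.7%), against 10.9% of all protein-coding genes. This list too was chosen with earlier results of these data known, so it is not independent. It was not split by length or number of starts, and of all genes of 20 kb or longer 25% were bound. Among 9 further actin, myosin light chain, troponin C and related genes, 2 were bound. The arginine kinase gene Argk1, which serves energy supply in muscle, had a signal of 1242 (rank 180), with 621 in replicate 1 and 620.9 in replicate 2. Act5C, a cytoplasmic actin, had 586 (249.4 and 314.6). Of 6 genes of excitation and contraction coupling, such as RyR and SERCA, 0 were bound.

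Of 11 genes of muscle attachment 3 were bound, against 10.9% of all protein-coding genes. Vinc, encoding vinculin, had 710 (353.9 and 360.8), and its summit was 60 bp from a start. The integrin gene mys had 210.9 (108.5 and 97.35), and Dys, the dystrophin gene, had 150.3 (66.36 and 44.07). Of 21 genes of muscle founding, fusion and fate, 5 were bound, against the same 10.9%. Fhos, a formin, had 1017 (516.7 and 495.4), and mbl, which encodes a splicing regulator, had 571.2 (261.4 and 297.5). Of the myoblast fusion genes, mbc had 187.2 (96.32 and 92.89), blow had 170.2 (66.98 and 117.1) and the receptor gene sns had 166.6 (42.22 and 112.3).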

How the data were processed

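The authors deposited peak lists on dm6 for each of 2 biological replicates, for both pooled, and a reproducible list, per the labels and the deposited file list. Peak signal is the authors' value in the caller's own units, not scaled for reads. Read depth is unknown, and for the aligner, the caller and the reproducibility threshold the sources used here give nothing. Members and lists were chosen with earlier results of these data known, and the MEF2 consensus was added after sequences were seen.

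Summits were set against Ensembl release 115 gene models (transposable elements left out) on chromosomes X, 2, 3 and 4. A gene was bound with a summit within 500 bp of any start site, and summits matched between lists within 100 bp. Shares carry exact Clopper-Pearson 95% intervals, which cover counting error only, over genes or over start sites taken as independent. No test was made, since 2 libraries of 1 group allow none, so shares of all protein-coding genes stand beside the main counts. All 30 members are named, each bound summit with full values. Neighbours are named where their start lay within 500 bp of a summit. Nearer starts beyond that distance are not named for all relaxed summits. Alternatives were other windows, interval overlap, the 50% of peaks with the highest signal, 1 summit per chain within 500 bp, and each replicate alone. The counting was checked on simulated data. The tools were SciPy 1.17.1, NumPy 2.4.6, matplotlib 3.10.9, pandas 2.3.3 and Python 3.11.15.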

Additional observations from a re-analysis of the deposited data

How the results depend on the processing

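The 50% of reproducible peaks with the highest signal left 2 bound muscle genes in place of 7 (6.67%, against 6.67% of all genes). There were 3 genes with a summit in the body in place of 8, and 0.615 summits per 100 kb in place of 2.77. Bound start sites numbered 2 in place of 10, and further muscle genes 5 in place of 10. The median signal was 677.5 in place of 221.6. This setting keeps fewer and higher peaks by construction. A window of 250 bp left 2 genes (6.67%, against 7.64% of all genes) and 2 start sites. A window of 1000 bp gave 9 genes (30%, against 14% of all genes) and 16 start sites. Where a peak had to cover the start, 1 gene was left (3.33%, against 5.72% of all genes), with 1 start site and 4 further genes. In the pooled list 7 genes were left (12 by summits). Requiring a match in both replicates left 7 genes of the pooled list. Under these settings no share was computed over all start sites, or over all genes for gene bodies or the pooled list, so those counts cannot be set against the genome. Within 50 bp the CAGTG words were found at 2 summits in place of 6.

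With each replicate alone, bound genes numbered 5 to 7, genes with a summit in the body 8 to 8, bound start sites 8 to 9 and further genes 9 to 10, the density was 2.61 per 100 kb, and the median signal was 106.5 to 117.2; the cause was not tested. No paired analysis was possible because there is 1 group. Unknown depth means that a gene without a peak is not shown to be unbound.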
